A study of Mus musculus with 10 samples.

Results

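The genes described here encode the degradative machinery of the lysosome: 37 genes for soluble hydrolases and their cofactors, lysosomal membrane proteins, subunits of the vacuolar proton pump (V-ATPase) and the MiT/TFE transcription factors. They were taken by gene name from a table of 46603 genes, all 37 names were found once, and cathepsins were left out. The counts came from macrophages of 4T1 tumours, which grow from a mouse mammary carcinoma cell line after grafting and so derive from 1 line. Viable cells positive for the macrophage surface proteins CD11B and F4/80 were sorted from each of 5 tumours (numbers 1, 2, 4, 5 and 6) into a podoplanin-positive (PDPN-positive) and a podoplanin-negative (PDPN-negative) fraction. This gave 10 libraries in 2 groups of 5, with no treatment or genetic change named in either group. No source used here names the host strain, its age or how many mice bore the tumours, so the replicates are tumours and not known mice. The main test compared the fractions within each tumour, so its p-values measure how that difference varied over these 5 tumours. The series concerns the role of the PDPN-positive cells in lymphatic vessel growth and matrix remodelling.

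Lysosomes are acidic organelles in which glycosidases, sulfatases, lipases and peptidases break down material taken up by endocytosis, phagocytosis or autophagy. The V-ATPase pumps protons into them: its cytosolic V1 sector splits ATP and its membrane V0 sector carries the protons. TFEB, TFE3 and MITF bind E-box sequences in promoters of many lysosomal genes, and tumour macrophages use this machinery to digest dead cells and matrix.

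Library totals ran from 12597829 to 15406722 counts, so that 1 count was worth 0.0652 to 0.0782 CPM, the unit used throughout (counts relative to the TMM-scaled library total). Pdpn, the gene of the sorted protein, measured 215 ± 22.9 CPM in PDPN-positive and 19.3 ± 7.33 CPM in PDPN-negative libraries (SD, n = 5 each), higher in 5 of 5 tumours. Itgam, which encodes CD11B, was at 1384 ± 59.4 and 1185 ± 69.4 CPM. It was higher in PDPN-positive libraries in 5 of 5 tumours and was called (log2 fold change 0.23, adjusted p = 0.0055 in edgeR, and 0.035 without the block). Adgre1, which encodes F4/80, was at 526 ± 70.8 and 573 ± 62.2 CPM, lower in 4 of 5 tumours and not called (adjusted p = 0.48 in edgeR). In tumour 6 it went the other way, at 650 against 483 CPM, and without that tumour the log2 fold change moved from -0.13 to -0.26 and was called (adjusted p = 0.0016 in edgeR). The 10 macrophage markers, with 3 higher and 2 lower, summed to between 16680 and 20220 CPM in every library. Their sum was higher on the PDPN-positive side in 2 of 5 tumours. Most other marker lists also held called genes. Fibroblast markers had 12 of 13 members higher and summed to 342 to 557 CPM against 40.6 to 54.3 CPM. Eosinophil markers had 5 of 5 tested members lower (4.76 to 14.4 against 58.6 to 149 CPM), and neutrophil markers 8 of 9 tested members lower and 1 higher (122 to 151 against 248 to 339 CPM). Of 8 monocyte markers, 4 were lower and 1, the abundant matrix gene Fn1, was higher. Their sum was higher in 5 of 5 tumours with Fn1 (11640 to 17820 against 6817 to 9888 CPM) and lower in 5 of 5 without it (463 to 686 against 966 to 1512 CPM). Tumour epithelial markers, with 1 of 5 tested members higher and 2 lower, summed to 93.0 to 258 against 78.0 to 210 CPM, the higher sum being PDPN-positive in 5 of 5 tumours. Endothelial markers, with 1 of 5 higher, summed to 205 to 492 against 149 to 412 CPM, higher in 4 of 5 tumours. Dendritic cell markers, with 3 of 6 lower, summed to 17.4 to 57.6 against 23.5 to 75.7 CPM. Their sum was higher on the PDPN-positive side in 2 of 5 tumours. None of 8 lymphocyte markers passed the filter on low counts. The part of all these cells in the lysosomal results was not tested. In bulk libraries such as these, fewer cells of a type and less RNA per cell cannot be told apart.

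The 37 lysosomal genes chosen here differed little between the fractions, and most of those called were higher in PDPN-positive libraries. All 37 members passed the filter on low counts, with at least 118 counts in every library. In edgeR's quasi-likelihood test with the tumour as a block, 12 members were higher and 3 lower at an adjusted p under 0.05. That is 32.4% higher, where 13.8% of all 13595 genes tested were higher, and 8.11% lower, where 14.3% of all genes were lower. Among the 7595 genes with a mean level at or above that of the lowest member (18.3 CPM), the shares were 15.5% higher and 18.5% lower. The changes were small: the largest fitted fold was 1.34, and no member passed 0.5 on the log2 scale, a size that 9.46% of all genes tested, and 6.0% of those at or above the level of the lowest member, reached with a call. The median log2 fold change of the members was 0.070, against 0.0074 over all genes. Without the block, 3 of the 37 members were higher (8.11%) and 2 lower, where 6.83% of all genes were higher and 6.77% lower. In that fit the share of members higher lay near that of all genes. The count of higher members fell from 12 to 7 when tumour 2, tumour 5 or tumour 6 was left out. Over all genes, the count of 1880 higher went to 1360, 1398 and 1925 in the same fits, so that without tumour 6 the members called became fewer while the genes called did not. In 3 members the levels of the groups did not overlap, a share of 8.11%, where 10.5% of all genes tested showed none.

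**Figure D1:**
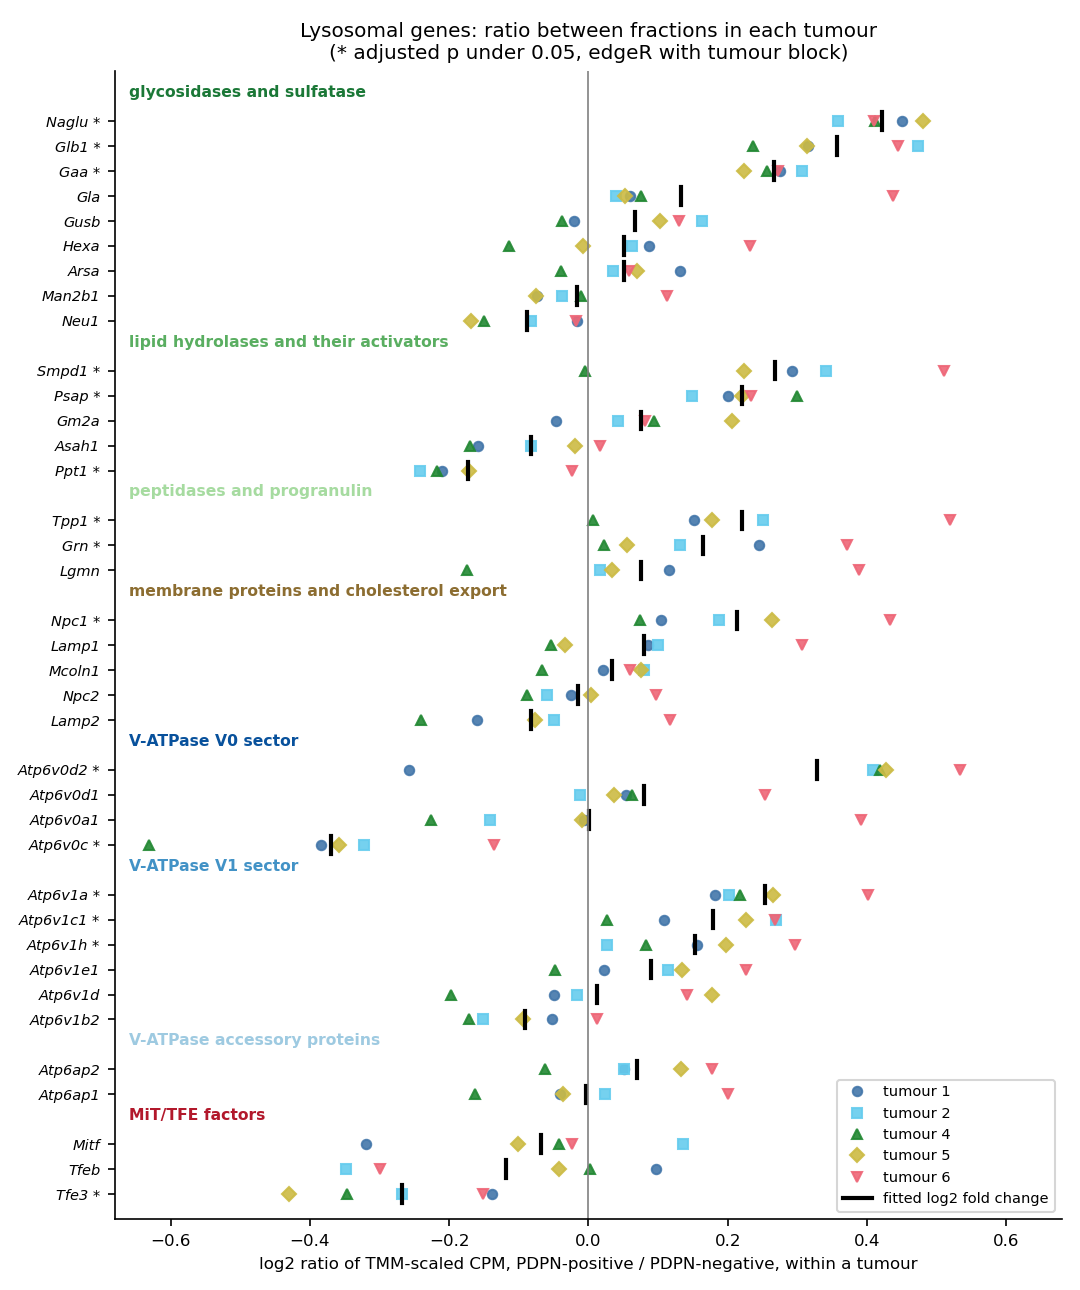
The log2 ratio of CPM, PDPN-positive over PDPN-negative library of a tumour (x axis), is plotted for each of the 37 members (y axis, grouped by role), with 1 marker per tumour and a black bar at the fitted log2 fold change; asterisks mark an adjusted p under 0.05. Naglu, Glb1 and Gaa lie to the right of 0 in all 5 tumours, Tfe3 and Atp6v0c to the left, and the markers of tumour 6 lie farthest to the right in 23 members.

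The 5 tumours differed in how far the fractions stood apart. In tumour 6, 31 of the 37 members were higher in the PDPN-positive library and the median log2 ratio was 0.23. In tumour 4, the median was -0.040, with 15 members higher and 22 lower. The other tumours had 21 to 24 members higher and medians between 0.043 and 0.055. The median over all genes tested stayed between -0.0039 and 0.018 in the 5 tumours. Tumour 6 gave the highest ratio of the 5 in 23 members and the lowest in none, while tumour 4 gave the lowest in 22. The summed level of the 37 genes was higher on the PDPN-positive side in 5 of 5 tumours, at 23840 to 26780 against 22170 to 24310 CPM. Psap made up a large part of that sum: the other 36 genes summed higher in 4 of 5 tumours and lower in tumour 4, at 16322 against 17088 CPM. Calls lost when a tumour was left out are named beside each gene.

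Promoter windows were searched for the E-box CACGTG, its extended form TCACGTGA and the M-box TCATGTG, the first 2 known from TFEB and TFE3 and the last from MITF. Windows ran from 250 bases before to 50 after a start site in RefSeq (GRCm38.p6), both strands were read, and each TCACGTGA also counts as a CACGTG. Of 31 members in that table, 10 held CACGTG in a window (32.3%, against 8.09% of all 27025 genes), 4 held TCACGTGA (12.9% against 1.12%) and 5 held TCATGTG (16.1% against 4.31%). Among the members matched, CACGTG lay in 4 of the 8 called higher, none of the 3 called lower and 6 of the 20 not called. TCACGTGA lay in 1, 0 and 3 of these. TCATGTG lay in Grn and Tpp1, called higher, in Atp6v0c and Ppt1, called lower, and in Gla, not called. Npc1, Atp6v0d2, Atp6v1c1 and Atp6v1h, also called higher, had no window. Whether a motif went with the calls was not tested. Sequences are shown 5′ to 3′ on the gene's strand, with CACGTG or TCACGTGA in capitals. They are those of the 4 called members with a CACGTG match and of 2 members with several such matches whose level did not pass the test.
Naglu, chr11:101070004-101070043, plus strand: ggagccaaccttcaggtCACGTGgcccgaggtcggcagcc
Glb1, chr9:114401013-114401052, plus strand: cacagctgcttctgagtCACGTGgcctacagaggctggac
Gaa, chr11:119267806-119267845, plus strand: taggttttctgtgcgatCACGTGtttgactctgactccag
Atp6v1a, chr16:44139367-44139408, minus strand: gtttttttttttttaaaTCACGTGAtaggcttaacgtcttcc
Mcoln1, chr8:3500431-3500497, plus strand: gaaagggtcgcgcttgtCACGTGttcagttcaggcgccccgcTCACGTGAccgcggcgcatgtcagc
Lamp1, chr8:13159083-13159160, plus strand: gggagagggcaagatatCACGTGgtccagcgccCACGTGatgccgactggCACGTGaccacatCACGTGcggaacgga
The match began 73 bases before the RefSeq start site in Naglu, 48 in Glb1, 140 in Gaa and 132 in Atp6v1a. Lamp1 held 4 matches, the first 61 and the last 15 bases before its start site. A match is a description of the sequence and not evidence of binding.

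Gene positions are those of GENCODE M21 (GRCm38), whose gene starts can differ from the RefSeq start sites used for the promoter windows. Among the printed sequences, the match of Naglu, that of Atp6v1a and the TCACGTGA of Mcoln1 lie inside the GENCODE gene bounds. Of the 9 genes for enzymes that remove sugars or sulfate, 3 rose and none fell, where 13.8% of all genes tested were higher and 14.3% lower. Naglu (ENSMUSG00000001751, chr11:101070012-101077672, plus strand) encodes α-N-acetylglucosaminidase, which takes part in the breakdown of heparan sulfate. In tumours 1, 2, 4, 5 and 6 it measured 142, 128, 139, 139 and 149 CPM in the PDPN-positive and 104, 99.7, 105, 99.3 and 112 CPM in the PDPN-negative libraries. Every PDPN-positive library lay above every PDPN-negative one. Its log2 change (the fitted log2 fold change, PDPN-positive over PDPN-negative) of 0.42 ± 0.043 (SE, adjusted p = 8.7e-06 in edgeR) was the largest among the members. Glb1 (ENSMUSG00000045594, chr9:114401076-114474898, plus strand) encodes β-galactosidase, which cleaves galactose from gangliosides and keratan sulfate. Its values were 116, 124, 119, 112 and 126 CPM against 93.5, 89.4, 101, 90.3 and 92.4 CPM, again without overlap (log2 change 0.36 ± 0.048 SE, adjusted p = 9.7e-05 in edgeR). The annotated exons of Glb1 share 165 bases with Tmppe on the same strand. Gaa (ENSMUSG00000025579, chr11:119267887-119285454, plus strand), the gene of the glycogen-degrading acid α-glucosidase, measured 224, 213, 207, 220 and 255 CPM against 186, 172, 173, 188 and 211 CPM. The groups overlapped only through the PDPN-negative library of tumour 6, and within each tumour the PDPN-positive library was the higher (log2 change 0.27 ± 0.042 SE, adjusted p = 0.00034 in edgeR). In all 3 promoters the printed window holds a CACGTG. These 3 calls also held without the block and in each fit with a tumour left out.

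The other 6 of this group did not pass the test. Gla, whose product removes terminal α-galactose from glycolipids, was higher in 5 of 5 tumours, but its log2 ratio was 0.44 in tumour 6 and at most 0.076 in the others (fitted value 0.13 ± 0.059 SE, adjusted p = 0.11 in edgeR). Hexa (a subunit of β-hexosaminidase), Gusb (β-glucuronidase), Man2b1 (α-mannosidase) and Arsa (arylsulfatase A, which acts on sulfatide) had fitted log2 fold changes between -0.017 and 0.067. Neu1, the sialidase gene, was lower in 5 of 5 tumours with a fitted value of -0.088 ± 0.045 (SE, adjusted p = 0.17 in edgeR).

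Sphingolipid and lipid-modifying genes moved both ways. Psap (ENSMUSG00000004207, chr10:60277627-60302597, plus strand) encodes prosaposin, the precursor of the saposins that present sphingolipids to their hydrolases, and it was the most abundant member. It measured 7675, 8218, 8038, 7966 and 7127 CPM in PDPN-positive and 6675, 7411, 6532, 6840 and 6065 CPM in PDPN-negative libraries. The ranges overlapped, but the PDPN-positive library was the higher in each tumour (log2 change 0.22 ± 0.049 SE, adjusted p = 0.0039 in edgeR, and 0.073 without the block). Smpd1, the acid sphingomyelinase gene, rose in 4 of 5 tumours (25.7 to 34.9 against 21.0 to 32.7 CPM, log2 change 0.27 ± 0.073 SE, adjusted p = 0.015 in edgeR). That call was lost without the block (0.19), without tumour 2 (0.064), without tumour 6 (0.052) and in DESeq2 (0.059). Ppt1, which encodes a thioesterase that removes palmitate from proteins, fell in 5 of 5 tumours, from 320 to 394 CPM in PDPN-negative to 281 to 333 CPM in PDPN-positive libraries. Its log2 change was -0.17 ± 0.047 (SE, adjusted p = 0.014 in edgeR), and the call was lost without the block (0.13) and without tumour 2 (0.078). Gm2a, the GM2 activator, and Asah1, acid ceramidase, had values of 0.075 and -0.083 and did not pass.

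Of the 3 genes for peptidases and progranulin, 2 rose and none fell, where 13.8% of all genes tested were higher and 14.3% lower. Both calls depended on single tumours. Tpp1, whose product releases tripeptides from protein ends, measured 378 to 500 CPM against 318 to 384 CPM (log2 change 0.22 ± 0.063 SE, adjusted p = 0.020 in edgeR). The ratio was 0.52 in tumour 6 and 0.0061 in tumour 4, and without tumour 6 the fitted value was 0.15 (adjusted p = 0.054). The Tpp1 call was also lost without tumour 2 (0.078), without tumour 5 (0.053) and without the block (0.10). Grn, which encodes the lysosomal and secreted glycoprotein progranulin, measured 2369 to 2982 against 1999 to 2546 CPM (0.16 ± 0.057 SE, adjusted p = 0.046 in edgeR). Its call was lost when tumour 1, 2, 5 or 6 was left out (adjusted p of 0.055 to 0.15), in DESeq2 (0.063) and without the block (0.24). Lgmn, the asparaginyl endopeptidase gene, did not pass at 3614 ± 521 against 3418 ± 373 CPM (SD, n = 5 each).

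Among the 5 genes for membrane proteins and cholesterol export, only Npc1 passed the test, where 13.8% of all genes tested were higher and 14.3% lower. NPC1 and NPC2 together carry cholesterol out of the lysosome. Npc1 measured 205, 223, 218, 255 and 316 CPM against 190, 195, 207, 213 and 234 CPM in the 5 tumours, higher within each (log2 change 0.21 ± 0.055 SE, adjusted p = 0.010 in edgeR, and 0.20 without the block). Its soluble partner Npc2 was at 1072 ± 99.4 and 1082 ± 77.6 CPM (SD, n = 5 each). The structural membrane proteins Lamp1 and Lamp2 had log2 fold changes of 0.080 ± 0.057 and -0.082 ± 0.054 (SE), and Mcoln1, a calcium release channel, 0.033 ± 0.049. None of these 4 passed (edgeR adjusted p between 0.29 and 0.85). Exons of Npc1, Ppt1, Grn and Atp6v1h share 601, 129, 68 and 127 bases with genes on the opposite strand, and whether reads were counted by strand is not stated, so these 4 counts are uncertain to that extent.

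**Figure D2:**
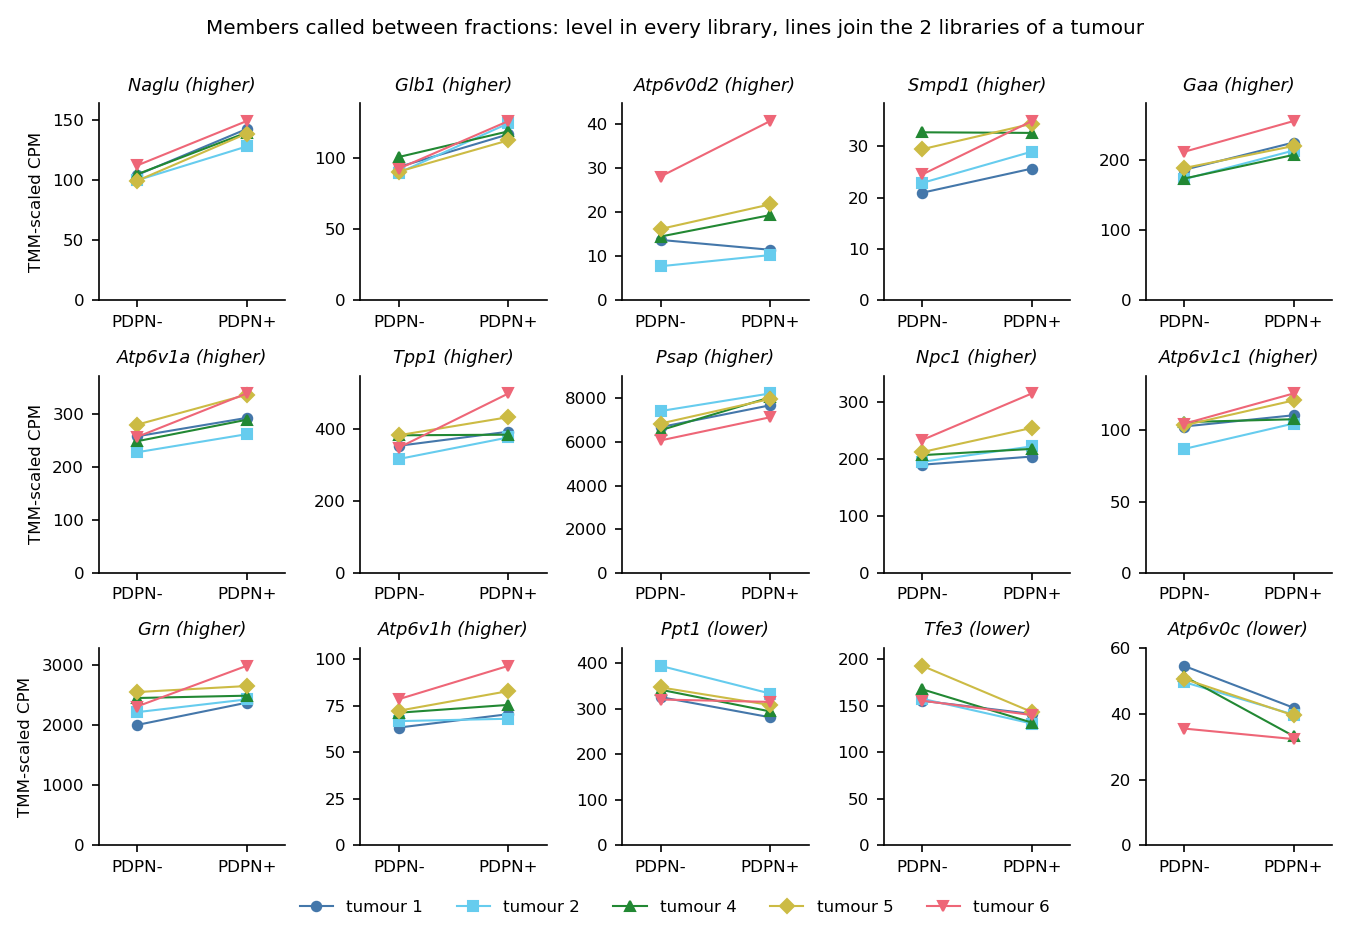
TMM-scaled CPM (y axis, from 0) of the 15 members past the threshold is shown in every library, with PDPN-negative on the left and PDPN-positive on the right of each panel and a line joining the libraries of a tumour. The lines of Naglu, Glb1 and Gaa run nearly parallel, whereas those of Atp6v0d2 start from levels that differ between tumours and 1 line, that of tumour 1, falls.

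Calls among the subunits of the proton pump went in both directions. Of the 12 V-ATPase members, 4 rose and 1 fell, where 13.8% of all genes tested were higher and 14.3% lower. Without the block, 0 rose and 1 fell. In the V1 sector, Atp6v1a (ENSMUSG00000052459, chr16:44085402-44139705, minus strand) encodes the catalytic A subunit. It measured 292, 261, 289, 336 and 338 CPM against 257, 227, 248, 279 and 256 CPM, the higher value being PDPN-positive in each tumour (log2 change 0.25 ± 0.047 SE, adjusted p = 0.0012 in edgeR, and 0.054 without the block). Its partner in the ATP-splitting ring, Atp6v1b2, was lower in 4 of 5 tumours and did not pass (-0.092 ± 0.046 SE, adjusted p = 0.16 in edgeR). Whether the changes of these partners differed from each other was not tested. Atp6v1c1 and Atp6v1h, both of which take part in joining V1 to V0 and in its regulation, had log2 changes of 0.18 ± 0.049 and 0.15 ± 0.050 and both rose (SE, adjusted p = 0.015 in edgeR and 0.036). Neither call held without the block (0.12 and 0.29) or in DESeq2 (0.068 and 0.18). The Atp6v1c1 call was also lost without tumour 2 (0.082) or 5 (0.063), and the Atp6v1h call without tumour 1 (0.088), 4 (0.058), 5 (0.11) or 6 (0.12). The stalk genes Atp6v1d and Atp6v1e1 had values of 0.012 and 0.090 and did not pass.

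In the V0 sector, the proteolipid gene and a tissue-restricted subunit moved in opposite directions. Atp6v0c (ENSMUSG00000024121, chr17:24163866-24169702, minus strand) encodes the proteolipid of the ring that carries protons across the membrane. It measured 41.9, 39.8, 33.2, 39.6 and 32.3 CPM in PDPN-positive and 54.7, 49.7, 51.5, 50.7 and 35.5 CPM in PDPN-negative libraries. It was lower in 5 of 5 tumours, and the ranges overlapped only through the PDPN-negative library of tumour 6 (log2 change -0.37 ± 0.065 SE, adjusted p = 0.00079 in edgeR). The call held without the block (0.045) and in each fit with a tumour left out. The annotation names pseudogenes of Atp6v0c (Atp6v0c-ps1 and Atp6v0c-ps2), and how reads shared with such copies were counted is not given, so its level is uncertain. Atp6v0d2 (ENSMUSG00000028238, chr4:19876841-19922605, minus strand) encodes the d subunit known from osteoclasts and macrophages, and Atp6v0d1 its widely expressed counterpart. Atp6v0d2 measured 11.5, 10.3, 19.3, 21.7 and 40.6 CPM against 13.7, 7.73, 14.4, 16.2 and 28.01 CPM. Tumour 6 was high in both fractions, and tumour 1 went against the other 4 (log2 change 0.33 ± 0.10 SE, adjusted p = 0.031 in edgeR). That call was lost without tumour 2, 4, 5 or 6 (adjusted p between 0.098 and 0.12), in DESeq2 (0.089) and without the block (0.63). Osteoclast markers summed to 580 to 1206 CPM in PDPN-positive and 594 to 1174 CPM in PDPN-negative libraries, with 2 of 6 tested members higher and 3 lower, and Calcr, the calcitonin receptor gene, had no count in any library. Atp6v0d1 was at 231 ± 23.8 and 218 ± 13.1 CPM (SD, n = 5 each, 0.079 ± 0.049 SE, adjusted p = 0.25 in edgeR). Atp6v0a1 and the accessory genes Atp6ap1 and Atp6ap2 had values of 0.0012, -0.0032 and 0.070 and did not pass.

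None of the 3 transcription factor genes was called higher in PDPN-positive libraries and 1 was called lower. Over all genes tested, 13.8% were higher and 14.3% lower. Tfe3 (ENSMUSG00000000134, chrX:7762560-7775202, plus strand) measured 141, 131, 132, 143 and 140 CPM against 155, 157, 168, 193 and 155 CPM, and the groups did not overlap. Its log2 change was -0.27 ± 0.052 (SE, adjusted p = 0.0015 in edgeR), it fell in 5 of 5 tumours, and the call held without the block (0.019) and in each fit with a tumour left out. Tfeb was at 38.7, 36.9, 39.9, 36.3 and 32.3 CPM against 36.2, 47.0, 39.8, 37.4 and 39.8 CPM (-0.12 ± 0.070 SE, adjusted p = 0.23 in edgeR). Mitf was at 36.3, 45.8, 46.3, 47.9 and 41.6 CPM against 45.3, 41.7, 47.6, 51.3 and 42.3 CPM (-0.069 ± 0.063 SE, adjusted p = 0.46 in edgeR). In both genes the groups overlapped widely. These factors are controlled largely through their phosphorylation and place in the cell, which mRNA counts do not show.

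Other lysosomal genes moved in both directions. Of 79 such genes in 6 lists, 74 were tested, 15 were higher and 11 lower, with a median log2 fold change of -0.0073. Beside these counts and those of each list below, 13.8% of all genes tested were higher and 14.3% lower. Among 16 further glycosidase and sulfatase genes, 7 rose and 2 fell. The 7 became 4 without tumour 1 or 2, 3 without tumour 5 or 6 and in DESeq2, and 2 without the block, and the 2 became 4 without tumour 6. Hyal1, a hyaluronidase gene, had the largest change, at 11.5, 9.82, 12.8, 16.7 and 15.7 CPM against 3.44, 2.62, 4.20, 5.19 and 2.85 CPM (log2 change 1.86 ± 0.13 SE, adjusted p = 2.2e-07 in edgeR). All PDPN-positive libraries lay above all PDPN-negative ones. The same libraries held the higher fibroblast marker sums, whose part in this was not tested. Galns, a sulfatase of keratan sulfate, rose by 0.39 ± 0.044 on the log2 scale (SE).

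Both further glycosidase and sulfatase list members that fell act, like Naglu, in heparan sulfate breakdown. Hgsnat, the acetyltransferase that acts just before NAGLU, fell from 99.4 ± 7.26 to 75.3 ± 2.99 CPM (SD, n = 5 each, log2 change -0.40 ± 0.057 SE, adjusted p = 0.00015 in edgeR). Ids, iduronate sulfatase, fell from 86.8 ± 8.07 to 67.3 ± 2.27 CPM (-0.36 ± 0.053 SE, adjusted p = 0.00017 in edgeR). Neither gene's groups overlapped, and both were lower in 5 of 5 tumours. Sgsh and Idua, of the same pathway, had log2 fold changes of -0.16 and -0.071 and did not pass. These genes were set beside Naglu after their values were seen, and no list of the pathway was tested.

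**Figure D3:**
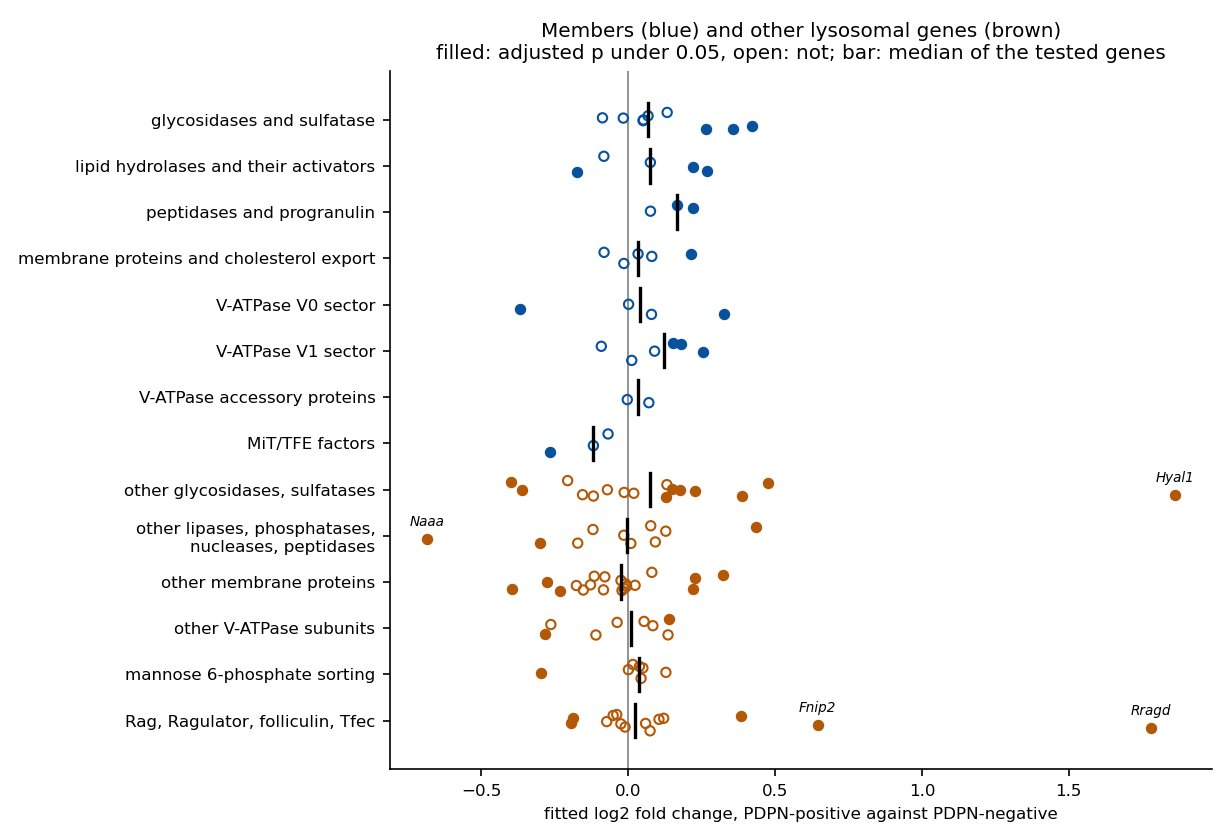
Fitted log2 fold changes (x axis) of the tested genes are shown by list (y axis), members in blue and other lysosomal genes in brown, filled where the adjusted p was under 0.05, with a bar at the median of each list. Members lie between -0.37 and 0.42, and the genes beyond 0.6 in either direction are Hyal1, Rragd, Fnip2 and Naaa.

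Further lipases, phosphatases, nucleases and peptidases had 1 of 10 tested genes higher and 2 lower. Naaa, an amidase that hydrolyses N-acylethanolamines, measured 190, 270, 218, 209 and 196 CPM in PDPN-positive and 304, 477, 356, 333 and 284 CPM in PDPN-negative libraries, with no overlap (log2 change -0.68 ± 0.049 SE, adjusted p = 3.3e-07 in edgeR). Eosinophil markers, 8 of 9 neutrophil, 4 of 8 monocyte and 3 of 6 dendritic cell markers were also lower in PDPN-positive libraries. Of these lists, 1 neutrophil and 1 monocyte marker were higher. The part of these cells in the fall of Naaa was not tested. Pld3, which encodes a lysosomal exonuclease, rose by 0.43 ± 0.049, and the acid phosphatase gene Acp2 fell by 0.30 on the log2 scale. Among 19 tested membrane proteins and transporters, 3 rose and 3 fell. Without tumour 6, 3 rose and 6 fell, and without the block 1 rose and 2 fell. The cation channel gene Tpcn1, the cystine exporter gene Ctns and Cln3 fell by 0.40, 0.28 and 0.23 on the log2 scale. The Cln3 call was lost without the block (adjusted p = 0.051).

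Of 8 further V-ATPase genes tested, 1 rose and 1 fell. Atp6v0a2, an alternative form of the subunit encoded by Atp6v0a1, fell from 94.3 ± 9.81 to 77.3 ± 2.63 CPM (SD, n = 5 each, log2 change -0.28 ± 0.050 SE, adjusted p = 0.00085 in edgeR), with no overlap between groups. Atp6v0e rose by 0.14 ± 0.046 (SE, adjusted p = 0.036 in edgeR), a call lost without the block (0.14), in DESeq2 and without tumour 2, 4, 5 or 6 (0.14 at most). Mannose 6-phosphate sorting, which delivers new hydrolases to the lysosome, had 1 of 7 genes lower, Sort1 (-0.30 ± 0.10 SE, adjusted p = 0.042 in edgeR). That call was lost without the block (0.37), in DESeq2 and without tumour 1, 2 or 5 (0.17 at most).

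Upstream control genes held the other large changes. The Rag GTPases, the Ragulator complex and folliculin with its partners FNIP1 and FNIP2 hold the MiT/TFE factors at the lysosome or release them according to nutrient state. The list of 14 held genes of these complexes, Mtor and Rptor of the kinase complex they act with, and Tfec, the fourth MiT/TFE gene. Of the 14, 3 rose and 2 fell, with Tfec among the 3. Fnip2 measured 124, 109, 120, 135 and 125 CPM against 72.5, 79.5, 77.4, 89.8 and 72.7 CPM (log2 change 0.64 ± 0.054 SE, adjusted p = 1.3e-06 in edgeR). Rragd, which encodes RagD and is a known target of MiT/TFE factors, measured 3.37, 2.96, 2.09, 6.40 and 3.96 CPM against 0.704, 1.31, 0.782, 1.66 and 0.878 CPM (1.78 ± 0.21 SE, adjusted p = 2.6e-05 in edgeR). In both genes the groups did not overlap, and both calls held without the block. Tfec rose in 5 of 5 tumours (80.1 ± 21.4 against 60.8 ± 12.1 CPM, SD, n = 5 each, adjusted p = 0.035 in edgeR), and Flcn fell by 0.19 on the log2 scale (adjusted p = 0.024). Neither of these calls held without the block (0.19 and 0.26). The Tfec call was also lost without tumour 2, 4 or 6 and with no filter on low counts, and the Flcn call without tumour 2, 4 or 5 (0.12 at most in both).

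**Figure D4:**
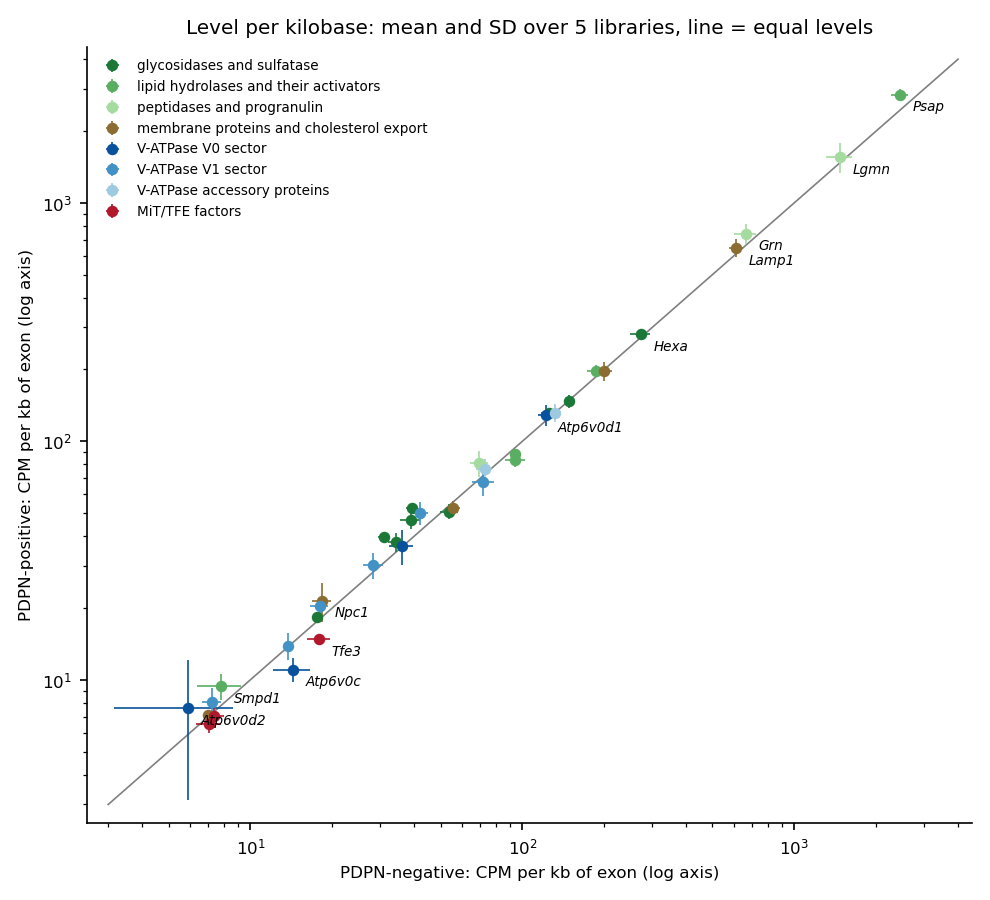
Mean CPM per kilobase of annotated exon is plotted for each member in PDPN-negative (x axis) and PDPN-positive libraries (y axis), both on log axes, with bars for the SD over 5 libraries and a line of equal levels. Psap, Lgmn, Grn and Lamp1 lie at the upper end and Atp6v0d2 at the lower end, and no member lies far from the line.

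Levels can be compared between genes only per length, and on that scale the members spanned a wide range and differed little between the fractions. In PDPN-negative libraries Psap was at 2443 ± 178, Lgmn at 1471 ± 161, Grn at 663 ± 61.1 and Lamp1 at 611 ± 34.6 CPM per kilobase of exon (SD, n = 5 each). Grn and Lamp1 did not differ beyond their spread. At the lower end, Atp6v0d2, Mcoln1, Tfeb, Atp6v1h, Mitf and Smpd1 lay between 5.89 and 7.82 CPM per kilobase. Tfe3, at 17.9 ± 1.73, was above Tfeb (7.06 ± 0.738) and Mitf (7.37 ± 0.642) in the same libraries. Among the d subunits, Atp6v0d1 stood at 122 ± 7.30 and Atp6v0d2 at 5.89 ± 2.73. These lengths are unions of all annotated exons, so a gene with rarely used exons is placed too low.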

How the data were processed

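The authors deposited raw counts in 1 table, with an Ensembl identifier and a name for each gene. Per the labels' protocols, tumours were digested with enzymes, red cells lysed and RNA of the sorted cells pre-amplified with SMART-Seq; no molecular identifiers are named, so counts are reads. The tools listed by the submitters' processing notes are featureCounts 1.5.3, STAR 2.5.2b, Bowtie2 2.3.3.1 and cutadapt 1.15. No source used here gives their settings, the build, or the strand and multi-mapping rules. Members sharing exon bases with another gene (9 of 37, most on the opposite strand) are therefore uncertain to that extent.

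Counts were tested with edgeR 4.0.16 (R 4.3.3): filterByExpr by group (minimum count 10, minimum total 15), TMM, robust quasi-likelihood fit with group and tumour, Benjamini-Hochberg adjustment over 13595 genes, threshold 0.05. The SE is the log2 fold change divided by the square root of F. CPM are TMM-scaled. Libraries of the same tumour deviated together (r across genes of 0.237 to 0.499, against at most 0.0872 between tumours). Alternatives were the fit without the block, library size alone, no filter, DESeq2 1.42.0 with block, and each tumour left out. Exon lengths came from GENCODE M21 (GRCm38, 46005 identifiers matched). The members, lists and tests were chosen with earlier results of these data known. Named were all members, up to 4 genes of each other list by lowest p, and Pdpn, Itgam and Adgre1; Sgsh, Idua, Fn1, Calcr and the sum without Psap were added after values were seen. Some genes that this rule names are not reported here.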

Additional observations from a re-analysis of the deposited data

Results flagged for a closer look

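A single library stood far from the other 4 of its group in 10 of 128 groups of 5 values examined, where chance gives about 1 in 20. In PDPN-positive libraries both such values came from tumour 6: Lamp1 at 1994 CPM (others 1639 to 1687) and Adgre1 at 650.3 CPM (others 484.4 to 521.0). In PDPN-negative libraries, tumour 2 was apart for Mcoln1 at 48.8 CPM (others 53.1 to 54.3), Atp6v1c1 at 86.8 (102.6 to 105.7), Atp6v0a2 at 111.7 (88.3 to 91.9) and Atp6v0b at 200.7 (210.1 to 211.8). Tumour 6 was apart for Atp6v0c at 35.5 CPM (others 49.7 to 54.7) and Tfec at 81.8 (50.8 to 59.1). Man2b1 was at 1126 CPM in tumour 4 (others 1204 to 1229) and Acp2 at 217.1 in tumour 1 (254.5 to 262.3). The causes were not tested.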

How the results depend on the processing

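The calls for Naglu, Glb1, Gaa, Tfe3 and Atp6v0c held under all 9 alternatives, and those for Psap, Npc1 and Atp6v1a under all but the fit without the block. In that fit without a replicate block, all genes gave 929 higher and 920 lower, the members 3 higher (and 2 lower), and the other lysosomal genes 6 higher and 7 lower. DESeq2 with the block called 1219 genes higher and 7 members higher. With a tumour left out, 7 to 10 members were higher, and of the other lysosomal genes 9 to 13 were higher and 8 to 17 lower, while over all genes 1360 to 1925 were higher and 1380 to 2016 lower. The 17 came without tumour 6, the 9 without tumour 2, 5 or 6. The sign changed for 4 members near 0, none of them called. With a tumour left out, Lgmn ranged from -0.0023 to 0.13, Atp6v0a1 from -0.097 to 0.052, Atp6v1d from -0.033 to 0.057 and Atp6ap1 from -0.055 to 0.030; DESeq2 gave -0.0046 for Atp6v0a1 and library size alone 0.0049 for Atp6ap1. The causes were not tested. Library size alone and no filter lost none of the 15 member calls. Each member had at least 118 counts in every library, and whether more depth would change the calls was not tested; Rragd, at about 1 CPM in PDPN-negative libraries, rests on few counts.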
